A study of Mus musculus with 8 samples.

Results

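The transcripts of 4 genes that encode readers of N6-methyladenosine (m6A) were followed in the mouse pancreatic alpha cell line αTC1-6: Ythdf2, Hnrnpa2b1, Hnrnpc and Prrc2a. Every site of the deposited table inside the RefSeq spans of these genes on mm10 was taken, which gave 46 sites of 33774: 18 in Ythdf2, 8 in Hnrnpa2b1, 2 in Hnrnpc and 18 in Prrc2a. The table held sites in 6531 named genes, with a median of 3 sites a gene.

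The assay was m6A-eCLIP, in which ultraviolet light fixes an anti-m6A antibody to the RNA it has bound, and that RNA is made into sequencing libraries. The groups were antibody libraries of cells given siRNA against Mettl14 (IP M14KD, replicates 3 and 4), antibody libraries of cells given scramble siRNA (IP SCR, replicates 1 and 2), and Input libraries of both (Input M14KD, replicates 3 and 4, and Input SCR, replicates 1 and 2). All came from the same immortalised cell line, an siRNA need not remove all of its target, and the labels do not say whether replicates were separate cultures, so every p-value measures the spread between these libraries alone. METTL14 is the partner of the catalytic subunit METTL3 in the methyltransferase that writes m6A.

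A reader is a protein that binds m6A in RNA or binds RNA differently because of it. YTHDF2 is a cytoplasmic protein that holds the modified base in its YTH domain and brings the CCR4-NOT deadenylase to its targets, which are then degraded. HNRNPA2B1 and HNRNPC are nuclear hnRNP proteins of splicing and RNA processing, and HNRNPC binds runs of uridine that a nearby m6A can unfold. PRRC2A is a large proline-rich protein reported to bind methylated mRNA and stabilise it. The values here are of the readers' own transcripts and say nothing of what these proteins bind.

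The 8 libraries held 10207383 to 10918559 site counts in IP and 3438530 to 3637740 in Input, and the reader sites took 0.241% to 0.326% of them. Mettl14, the targeted gene, had 2 sites, with 42 and 25 counts in IP M14KD, 78 and 81 in IP SCR, 32 and 22 in Input M14KD, and 64 and 44 in Input SCR. Both M14KD libraries lay below both SCR libraries, but its log2 change of -1.17 (SE 0.24) in IP had an adjusted p of 0.156 and that of -0.96 (SE 0.27) in Input one of 0.26. Sites were found in 7 alpha cell markers, Gcg, the glucagon gene, among them. The fixed lists of beta, delta, PP, fibroblast, leukocyte and endothelial markers had 0 genes with a site, and the acinar and ductal list had 1 of 5, Sox9, at 4.3 to 5.77 counts per 1000000 counts of the table (CPM) in IP and 0 to 1.74 in Input. The 7 alpha cell markers summed to 24900 to 25400 CPM in IP M14KD, 20900 to 21800 in IP SCR, 72600 to 73200 in Input M14KD and 61800 to 64900 in Input SCR, a sum that Gcg and Ttr carry. Irx1 and Irx2 averaged lower in M14KD than in SCR in IP and in Input. The Irx1 IP libraries overlapped, at 1453 and 1487 CPM in M14KD and 1466 and 1509 in SCR. Gcg, Ttr, Slc7a2 and Pou3f4 averaged higher in M14KD in both kinds, and Pcsk2 averaged lower in IP and higher in Input. M14KD and SCR libraries also overlapped for Pou3f4 in both kinds, for Slc7a2 in Input and for Pcsk2 in IP. Whether these values bear on the reader values was not tested.

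All 4 genes are transcribed from the minus strand, and distances below count from base 1 at the listed start of the RefSeq promoter table (build GRCm38.p6). Ythdf2 (chr4:132184916-132212256) had 17 of its 18 sites within 1089 bases, 6832 to 7920 bases from the start, and the last at 25494 bases. Hnrnpa2b1 (chr6:51460434-51470048) had 6 sites within 115 bases, 6650 to 6764 bases from its most upstream listed start, and 2 sites at 176 and 99 bases. Hnrnpc (chr14:52073377-52104039) had its 2 sites at 67 and 54 bases. Prrc2a (chr17:35149076-35165321) had 16 sites within 1267 bases, 8022 to 9288 bases from the start, and 2 sites at 42 and 10 bases. Sites within 176 bases of a listed start were thus found in 3 of the 4 readers but not in Ythdf2, and 2.8% of the 25755 sites of the table with a listed start lay within 100 bases of one. The spans of Hnrnpa2b1, Hnrnpc and Prrc2a begin upstream of the listed starts used here, which are at 51469894, 52104021 and 35164877. Near the start therefore means near a listed start, not near the edge of the span. Exons and untranslated regions were not placed here, the strand of a site is not given, and none of the 46 sites lay in another named gene's span.

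The sequences around the 3 reader sites that fall in the first 50 bases after a listed start are shown because the Hnrnpa2b1 site among them held most of that gene's IP counts, and the Prrc2a sites did not. They are from RefSeq on GRCm38.p6, read along the minus strand, with the base at the site in capitals.
Hnrnpa2b1 site 51469796, chr6:51469796-51469816: gagctcctttgcggcccagtT
Prrc2a site 35164836, chr17:35164828-35164856: tgagcgagggagacgggaggAgccgagcg
Prrc2a site 35164868, chr17:35164859-35164877: agtcggagcCcagccgcgg
The Hnrnpa2b1 site, 99 bases from the most upstream listed start and 50 from the other listed start, falls on T, and the Prrc2a sites fall on A and on C. Of all 434 sites in the first 50 bases after a listed start of their own gene, 36.9% fell on A, 29.5% on G, 21.4% on T and 12.2% on C. On the reading of positions used here, a base other than A was thus common at this place in the table. The deposited start of a site was taken to lie just before the site's base, which no header states. On the other reading every site would fall on the neighbouring base, and these bases and shares could differ.

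For each gene the sum over its sites is given first, in CPM of a library's table total. How many bases were counted at a site is not given, so neighbouring sites may share reads, a sum may count a read more than once, and sums of different genes are not set against each other. In bulk libraries, fewer cells with a transcript and less RNA per cell cannot be told apart.

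Ythdf2 had 377 and 375 CPM in IP M14KD, 357 and 364 in IP SCR, 163 and 151 in Input M14KD, and 162 and 154 in Input SCR. The IP libraries of both genotypes lay far above their Input libraries, while the M14KD and SCR Input values overlapped. Hnrnpa2b1 had 1308 and 1100 CPM in IP M14KD, 1057 and 921 in IP SCR, 2484 and 2141 in Input M14KD, and 2109 and 1765 in Input SCR. It was the only one of the 4 with less signal in every IP library than in any Input library, and both M14KD libraries were above both SCR libraries in IP and in Input.

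Hnrnpc had 233 and 190 CPM in IP M14KD, 181 and 174 in IP SCR, 189 and 179 in Input M14KD, and 177 and 161 in Input SCR. Its M14KD libraries were above its SCR libraries in both kinds, by little in Input. Prrc2a had 728 and 826 CPM in IP M14KD, 866 and 951 in IP SCR, 421 and 540 in Input M14KD, and 582 and 667 in Input SCR. It ran the other way, with both M14KD libraries below both SCR libraries in IP and in Input.

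**Figure D1:**
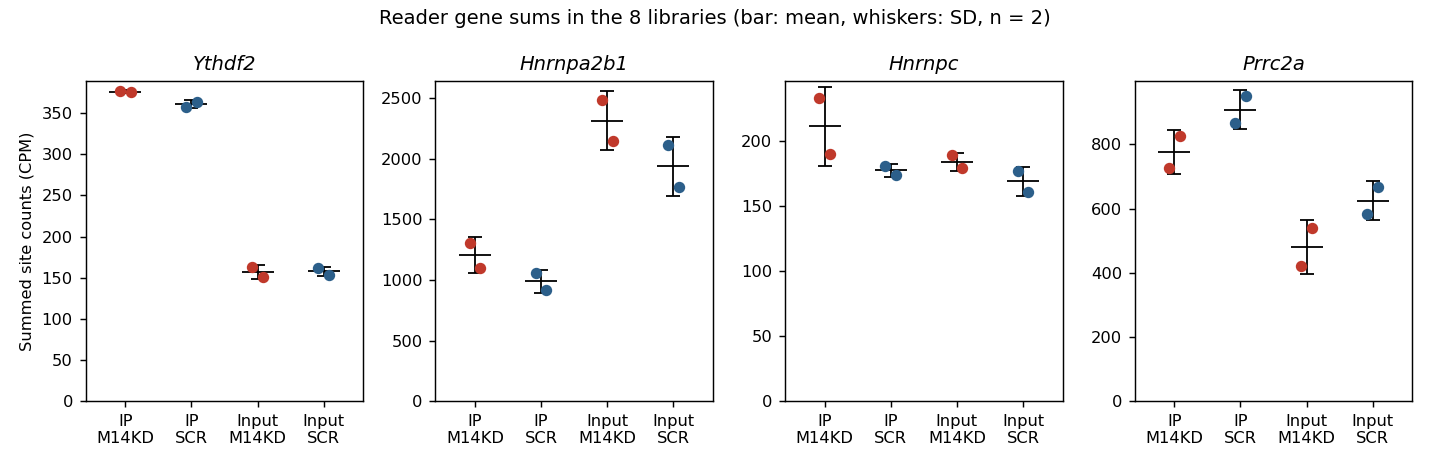
Summed site counts of each reader gene in the 8 libraries, in CPM of the table total, with points for libraries, black bars for means and whiskers for SD (n = 2 a group). Ythdf2 is higher in IP than in Input, Hnrnpa2b1 is higher in Input than in IP, and Prrc2a has its M14KD points below its SCR points.

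The first comparison asked how strongly the antibody libraries carried each reader transcript relative to Input. It was fitted with edgeR's quasi-likelihood test on all 8 libraries, with p-values Benjamini-Hochberg adjusted over the whole table and a threshold of 0.05. The fit used TMM scaling, which sets the bulk of the sites near 0, at a median log2 IP over Input of 0.04 in M14KD and 0.06 in SCR. With table totals as the scale, as in the CPM, that median is 0.76 in M14KD and 0.77 in SCR, so a sign here says higher or lower than most sites, not enriched in absolute terms.

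On that scale Ythdf2 was higher in IP, with a gene-sum log2 IP over Input of 0.57 (SE 0.08, adjusted p = 1.4e-05) in M14KD and 0.50 (SE 0.08, adjusted p = 5.92e-05) in SCR. Hnrnpa2b1 was lower in IP, at -1.63 (SE 0.10, adjusted p = 1.49e-09) in M14KD and -1.66 (SE 0.10, adjusted p = 1.15e-09) in SCR, and 6.49% of the genes tested had a lower value than it in SCR. Hnrnpc was lower too, at -0.49 (SE 0.10, adjusted p = 0.000471) in M14KD and -0.62 (SE 0.10, adjusted p = 4.97e-05) in SCR. Prrc2a did not pass, at 0.01 (95% interval -0.22 to 0.24, adjusted p = 0.949) in M14KD and -0.15 (-0.38 to 0.07, adjusted p = 0.214) in SCR. With same-numbered IP and Input libraries as a replicate block, the Prrc2a value in SCR stayed at -0.15 and its SE of 0.05 gave an adjusted p of 0.00903. So 3 of 4 sums passed in each genotype, against a background of 71% of gene sums in M14KD and 69.9% in SCR. With table totals as the scale the Hnrnpc sum turned to 0.23 in M14KD and 0.09 in SCR, and neither value passed. The Prrc2a sum became 0.72 in M14KD and 0.56 in SCR, and both passed.

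In order of the SCR value, Ythdf2 came first, then Prrc2a, Hnrnpc and Hnrnpa2b1, and the M14KD order was the same. The 95% intervals of Ythdf2 (0.32 to 0.67), Prrc2a (-0.38 to 0.07), Hnrnpc (-0.84 to -0.41) and Hnrnpa2b1 (-1.88 to -1.44) did not overlap in SCR, although Prrc2a and Hnrnpc lay close to each other. With table totals as the scale the order was the same in both genotypes.

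Site by site, 39 of the 46 passed in M14KD (17 higher, 22 lower), against 66.9% of all sites (33.8% higher, 33.1% lower), and 38 of 46 passed in SCR (15 higher, 23 lower), against 67.4% (34% higher, 33.4% lower). With table totals as the scale the split turned to 24 higher and 8 lower in M14KD and 23 higher and 11 lower in SCR, while over all sites 77.6% of calls were then higher in M14KD and 77.9% in SCR. In Ythdf2, 11 sites were higher and 2 lower in M14KD, and 10 higher and 2 lower in SCR. The Ythdf2 site with the highest value in SCR, chr4:132204337, had 37.5 and 37.9 CPM in IP M14KD, 37.8 and 39.4 in IP SCR, 13 and 6.4 in Input M14KD, and 8.85 and 9.62 in Input SCR. Its log2 IP over Input was 1.23 (SE 0.19, adjusted p = 1.31e-06) in M14KD and 1.35 (SE 0.19, adjusted p = 2.54e-07) in SCR. Within the same cluster, the site at chr4:132204834 had 10.8 and 10.6 CPM in IP M14KD, 8.43 and 10.7 in IP SCR, 11.9 and 12.5 in Input M14KD, and 17.7 and 13.2 in Input SCR. Its value was -0.91 (SE 0.21, adjusted p = 0.000317) in M14KD and -1.41 (SE 0.20, adjusted p = 2.03e-07) in SCR, so sites of 1 dense cluster lay on opposite sides of most sites of the table. The Ythdf2 site with the most IP counts, chr4:132204732, had a log2 IP over Input of 1.08 (SE 0.17, adjusted p = 1.2e-06) in M14KD and 1.06 (SE 0.17, adjusted p = 1.37e-06) in SCR.

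On the TMM scale all 8 Hnrnpa2b1 sites and both Hnrnpc sites were lower in both genotypes. The least low of the Hnrnpa2b1 sites was the one near the start, chr6:51469796, with 837 and 658 CPM in IP M14KD, 661 and 580 in IP SCR, 717 and 638 in Input M14KD, and 616 and 537 in Input SCR. Its log2 IP over Input was -0.58 (SE 0.10, adjusted p = 9.55e-06) in M14KD and -0.61 (SE 0.10, adjusted p = 4.49e-06) in SCR. With table totals the log2 ratios of same-numbered libraries at this site were 0.22 and 0.05 in M14KD and 0.10 and 0.11 in SCR. The distant site chr6:51463245 was the lowest of the gene, with 20.1 and 20.6 CPM in IP M14KD, 20.4 and 13 in IP SCR, 100 and 84.3 in Input M14KD, and 86.5 and 66.5 in Input SCR. Its value was -2.90 (SE 0.14, adjusted p = 7.29e-18) in M14KD and -2.91 (SE 0.15, adjusted p = 2.04e-17) in SCR, and it stayed below 0 with table totals as the scale, at -2.19 in SCR. The Hnrnpc sites had -0.58 (SE 0.10) at 67 bases and -0.45 (SE 0.10) at 54 bases in M14KD, and -0.71 (SE 0.10) and -0.59 (SE 0.11) in SCR. With table totals these became 0.01 and 0.13 in SCR, near 0.

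In Prrc2a, 6 sites were higher and 10 lower in M14KD, and 5 higher and 11 lower in SCR. The site at chr17:35155650 had 68.8 and 83.8 CPM in IP M14KD, 85 and 96.1 in IP SCR, 22.7 and 25.3 in Input M14KD, and 32.9 and 35.5 in Input SCR. Its log2 IP over Input of 0.95 (SE 0.14, adjusted p = 3.55e-07) in M14KD and 0.69 (SE 0.12, adjusted p = 1.37e-05) in SCR was the highest of the gene in SCR. The site with the most IP counts, chr17:35155699, had 0.76 (SE 0.13, adjusted p = 3.06e-06) in M14KD and 0.63 (SE 0.12, adjusted p = 2.03e-05) in SCR. The lowest in SCR, chr17:35155899, lay nearer the start and had -1.08 (SE 0.14, adjusted p = 5.57e-08) in M14KD and -1.11 (SE 0.13, adjusted p = 1.15e-08) in SCR.

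**Figure D2:**
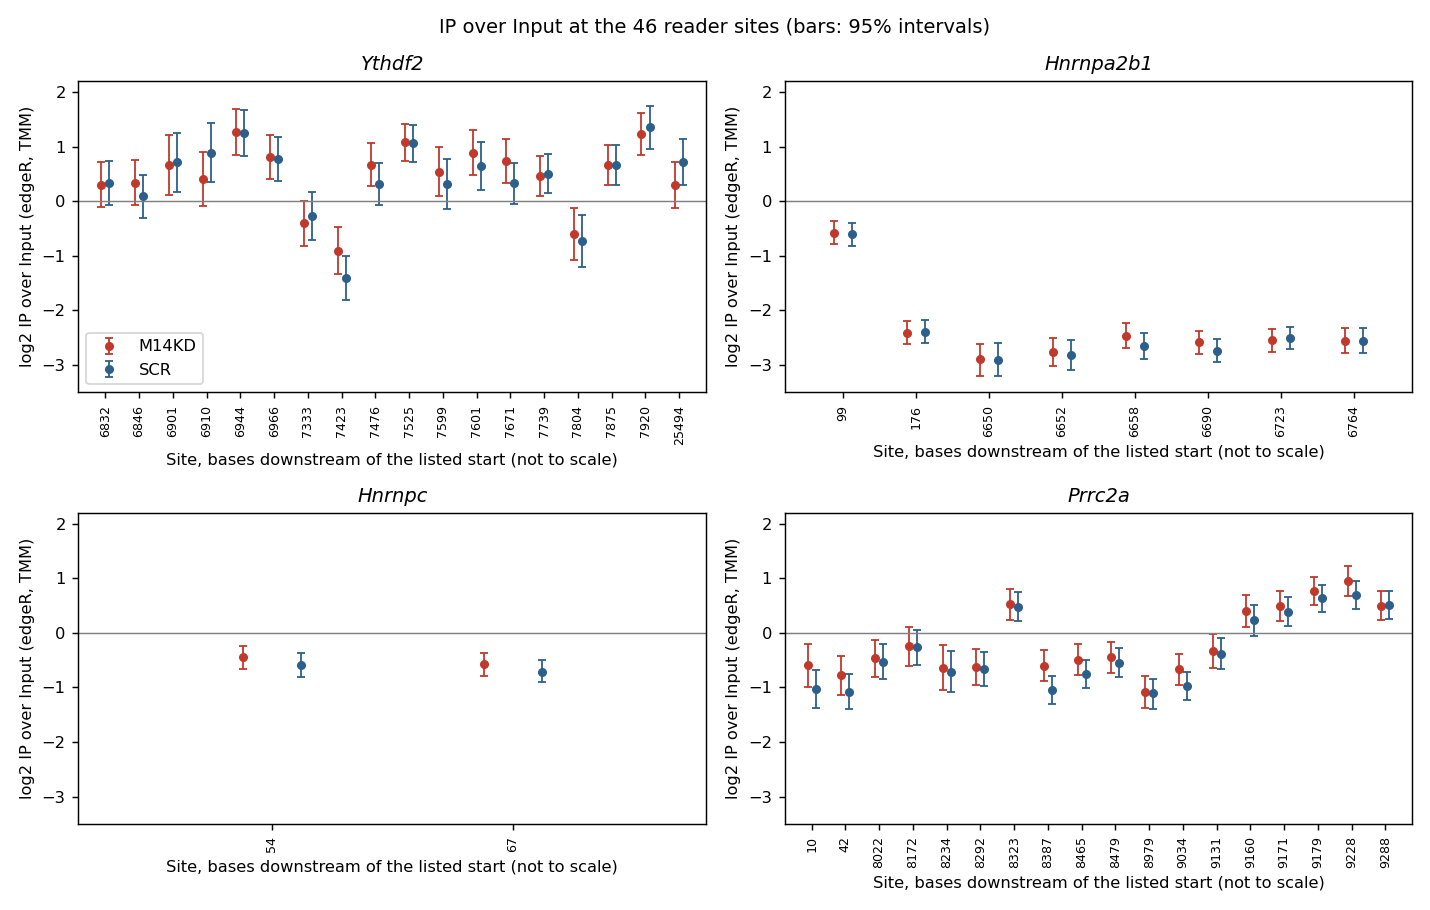
Log2 IP over Input of the 46 reader sites (edgeR, TMM scaling) in M14KD and SCR, ordered by bases from the listed start, with 95% intervals. Ythdf2 sites lie between 1.35 and -1.41 in SCR, all Hnrnpa2b1 and Hnrnpc sites lie below 0, and Prrc2a sites lie between 0.69 and -1.11.

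The split of counts among the sites of 1 gene needs no scaling between libraries. These groups of sites were chosen after their values were seen, so they are described without a test. In Hnrnpa2b1 the site at 99 bases held 64% and 59.8% of the gene's counts in IP M14KD and 62.5% and 63% in IP SCR, against 28.9% and 29.8% in Input M14KD and 29.2% and 30.5% in Input SCR. The 6 distant sites held 29.7% and 32.1% in IP M14KD and 30.8% and 29.2% in IP SCR, against 58.8% and 58.5% in Input M14KD and 58.9% and 58% in Input SCR. The gene's other site near the start, at 176 bases, held 6.34% to 8.11% in IP and 11.5% to 12.3% in Input, so it lay with the distant sites. The antibody libraries thus drew the larger part of their Hnrnpa2b1 counts from the site at 99 bases, and the Input libraries from the distant cluster, alike in both genotypes.

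In Prrc2a the sites with larger shares in IP lay far from the start. Its 5 sites farthest from the start, within 129 bases of one another, held 48.1% and 48.2% of the gene's counts in IP M14KD and 49.2% and 48.6% in IP SCR, against 29.6% and 31.7% in Input M14KD and 32.3% and 29.4% in Input SCR. Its 2 sites near the start held 4.97% and 4.67% in IP M14KD and 4.8% and 4.89% in IP SCR, against 7.03% and 8.4% in Input M14KD and 8.27% and 9.6% in Input SCR. Of the other 11 distant sites, 9 held a smaller share in every IP library than in any Input library, and 1 held a larger one. Distance from the start thus did not by itself separate larger IP shares from smaller ones in this gene. The 2 Hnrnpc sites, 14 bases from end to end, each held 48.4% to 51.6% of the gene's counts in every library. Over the whole table and on the scale of table totals, the median log2 IP over Input of sites within 100 bases of a listed start was -0.35 in M14KD and -0.38 in SCR (678 sites with a mean count of at least 20), against 0.83 in M14KD and 0.84 in SCR for the other 23840 sites. The 2 start-near sites of Prrc2a thus lay on the same side of the rest of their gene as start-near sites of the table did of other sites. The Hnrnpa2b1 site at 99 bases lay on the opposite side, but only relative to the rest of its own gene, which was lower still. On the scale of table totals its log2 ratios were 0.22 and 0.05 in M14KD and 0.10 and 0.11 in SCR. These lay below the medians of the other sites of the table, as start-near sites did.

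**Figure D3:**
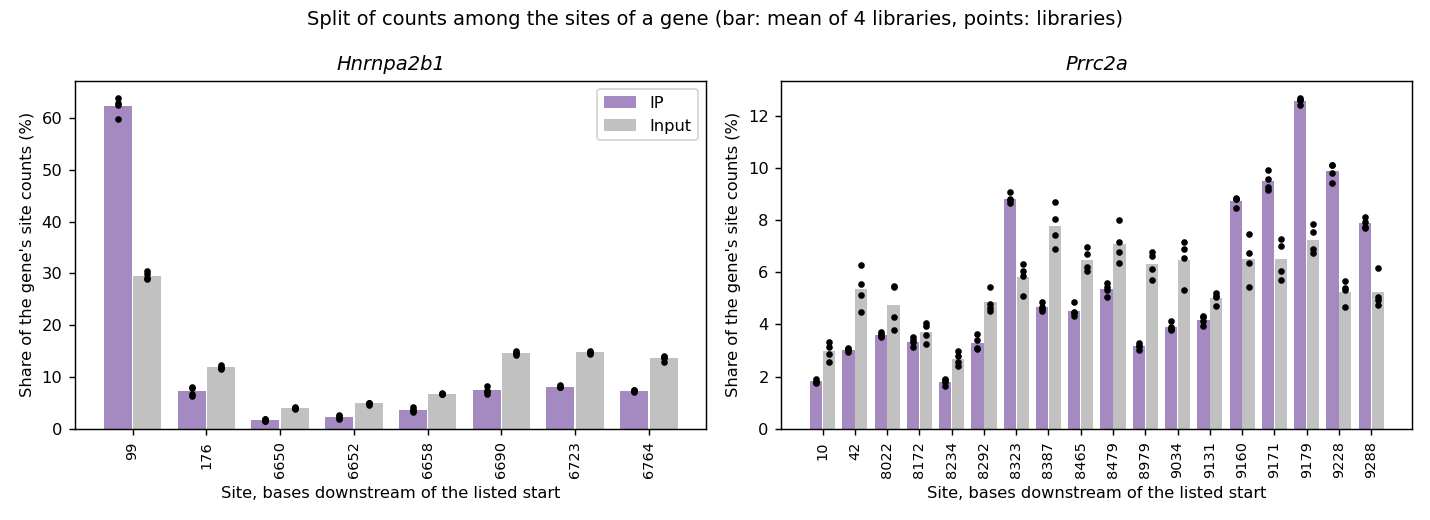
Share of a gene's counts at each of its sites in percent, for Hnrnpa2b1 and Prrc2a, with bars for the mean of the 4 IP and the 4 Input libraries and points for single libraries. The Hnrnpa2b1 site at 99 bases holds 59.8% to 64% in IP and 28.9% to 30.5% in Input, and the most distant Prrc2a sites hold larger shares in IP than in Input.

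The second comparison asked whether the antibody counts at reader transcripts differed after Mettl14 knockdown. In gene sums, M14KD and SCR libraries did not overlap for any of the 4, with Ythdf2, Hnrnpa2b1 and Hnrnpc higher (19.8% of all gene sums were higher without overlap) and Prrc2a lower (26.1% were lower). Ythdf2 averaged 376 ± 1.67 CPM in IP M14KD and 360 ± 4.55 in IP SCR, and Hnrnpa2b1 averaged 1204 ± 147 in IP M14KD and 989 ± 96.1 in IP SCR (SD, n = 2 each). Hnrnpc averaged 212 ± 30 CPM in IP M14KD and 177 ± 5.32 in IP SCR, and Prrc2a averaged 777 ± 68.7 in IP M14KD and 908 ± 60.3 in IP SCR (SD, n = 2 each). By edgeR 0 of 4 sums passed (background 0%), DESeq2 also called 0 of 4 (background 0.705%), and by edgeR 3 of 4 had an unadjusted p under 0.05, against 14.1% of all genes. Hnrnpa2b1 had a log2 change of 0.31 (SE 0.10, 95% interval 0.09 to 0.52, adjusted p = 0.253) and stood above 93.3% of genes. Hnrnpc had 0.28 (SE 0.10, 0.06 to 0.50, adjusted p = 0.291), Prrc2a had -0.20 (SE 0.08, -0.39 to -0.02, adjusted p = 0.324), and Ythdf2 had 0.08 (SE 0.07, -0.07 to 0.23, adjusted p = 0.594). The values turned on single libraries. Without replicate 4, where 2.63% of all gene sums passed, Hnrnpa2b1 was 0.41 (adjusted p = 0.00572), Hnrnpc was 0.40 (adjusted p = 0.0333) and Prrc2a was -0.31 (adjusted p = 0.0697). Without replicate 1, where 2.84% of sums passed, Hnrnpa2b1 was 0.40 (adjusted p = 0.0315), without replicate 2 it was 0.20 (adjusted p = 0.468), and without replicate 3 the fits gave 0.18 for Hnrnpa2b1, 0.13 for Hnrnpc and -0.11 for Prrc2a.

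Of the 46 sites, 1 passed in IP, against 0.63% of all sites (0.255% higher, 0.375% lower), DESeq2 called 0, against 0.354%, and 16 had an unadjusted p under 0.05, against 13.3%. It was the Hnrnpa2b1 site chr6:51463205, 6690 bases from the start, which had 1005 and 921 counts (95.2 and 90.2 CPM) in IP M14KD and 839 and 659 counts (76.8 and 62.3 CPM) in IP SCR. Both M14KD libraries were higher, by 0.44 on the log2 scale (SE 0.10, adjusted p = 0.0427). The site did not pass with DESeq2 (adjusted p = 0.0588), without a filter on low counts (adjusted p = 0.0517), or without replicate 2 (0.29, adjusted p = 0.302), replicate 3 (0.40, adjusted p = 0.467) or replicate 4 (0.48, adjusted p = 0.0842). Without replicate 1, 7 reader sites passed, where 4.25% of all sites did.

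Site values of 1 gene tended to lie on 1 side. All 8 Hnrnpa2b1 sites were above 0 in IP (0.25 to 0.44), as in 10.2% of the 1311 genes with at least 8 tested sites, and both Hnrnpc sites were above 0 (0.27 and 0.29). All 18 Prrc2a sites were below 0 (-0.29 to -0.11), as in 5.26% of the 190 genes with at least 18 tested sites. These backgrounds, here and for Input below, include genes with more sites than the reader. In IP the share of genes with all sites above 0 was 10.2% at 8 or more sites and 5.26% at 18 or more. The share among genes of exactly 8 sites was not computed and may be higher. Ythdf2 had 15 sites above 0 and 3 below (-0.19 to 0.34). The site with the lowest p was chr4:132204656 in Ythdf2 (0.34, SE 0.12, adjusted p = 0.216), chr14:52103968 in Hnrnpc (0.29, SE 0.10, adjusted p = 0.176) and chr17:35155707 in Prrc2a (-0.24, SE 0.09, adjusted p = 0.217), and none of these passed. Libraries did not overlap at 5 of the 8 Hnrnpa2b1 sites, at both Hnrnpc sites and at 5 Ythdf2 sites, all higher (18.7% of all sites), and at 15 of 18 Prrc2a sites and 2 Ythdf2 sites, all lower (25% of all sites). Sites of a gene come from the same RNA and may share reads, so they are not separate evidence.

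The third comparison took the Input libraries, which measure the RNA without the antibody. Input sums did not overlap for Hnrnpa2b1 and Hnrnpc, both higher in M14KD (19.9% of all gene sums), and for Prrc2a, lower in M14KD (20.5%). Again 0 of 4 sums passed with edgeR (background 0%) and 0 with DESeq2 (background 0.395%), and 2 of 4 had an unadjusted p under 0.05, against 10.2% of genes. Prrc2a averaged 481 ± 84.3 CPM in Input M14KD and 625 ± 60.6 in Input SCR (SD, n = 2), a log2 change of -0.38 (SE 0.11, 95% interval -0.62 to -0.14, adjusted p = 0.26), lower than all but 6.44% of genes. Hnrnpa2b1 averaged 2312 ± 242 CPM in Input M14KD and 1937 ± 243 in Input SCR, a change of 0.26 (SE 0.09, 0.06 to 0.45, adjusted p = 0.359). Hnrnpc had 0.12 (SE 0.10, -0.10 to 0.34, adjusted p = 0.706), and Ythdf2 had -0.01 (SE 0.10, -0.23 to 0.21, adjusted p = 0.985). Without replicate 1, where 0.57% of all gene sums passed, Hnrnpa2b1 at 0.39 (adjusted p = 0.0398) and Prrc2a at -0.48 (adjusted p = 0.0438) did so. Without replicate 2 they were 0.15 and -0.26, without replicate 3 0.15 and -0.20, and without replicate 4 0.37 and -0.56, and none of these passed.

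Of the 46 sites 0 passed in Input with edgeR, against 0.0929% of all sites, and 0 with DESeq2, against 0.116%, while 17 had an unadjusted p under 0.05, against 8.69%. All 18 Prrc2a sites were below 0 (-0.61 to -0.18), as in 5.06% of the 178 genes with at least 18 tested sites. The Prrc2a site chosen for its p, chr17:35156491, had 31.3 and 37.2 CPM in Input M14KD and 46.7 and 58 in Input SCR, a change of -0.60 (SE 0.14, adjusted p = 0.12), and it passed without replicate 1 (-0.75, adjusted p = 0.0183). All 8 Hnrnpa2b1 sites were above 0 (0.24 to 0.32), as in 5.53% of the 1230 genes with at least 8. The lowest p of the gene was at chr6:51463172, which had 370 and 323 CPM in Input M14KD and 303 and 258 in Input SCR, a change of 0.32 (SE 0.10, adjusted p = 0.267). Ythdf2 had 13 sites above 0 and 5 below, and its site with the lowest p, chr4:132205347, had 5.81 and 5.82 CPM in Input M14KD and 3.59 and 4.4 in Input SCR, a change of 0.55 (SE 0.35, adjusted p = 0.687). Both Hnrnpc sites were above 0 (0.13 and 0.15). Libraries did not overlap at 3 Hnrnpa2b1, 1 Hnrnpc and 2 Ythdf2 sites, all higher (18.3% of all sites), and at 12 Prrc2a and 3 Ythdf2 sites, all lower (19.8%).

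**Figure D4:**
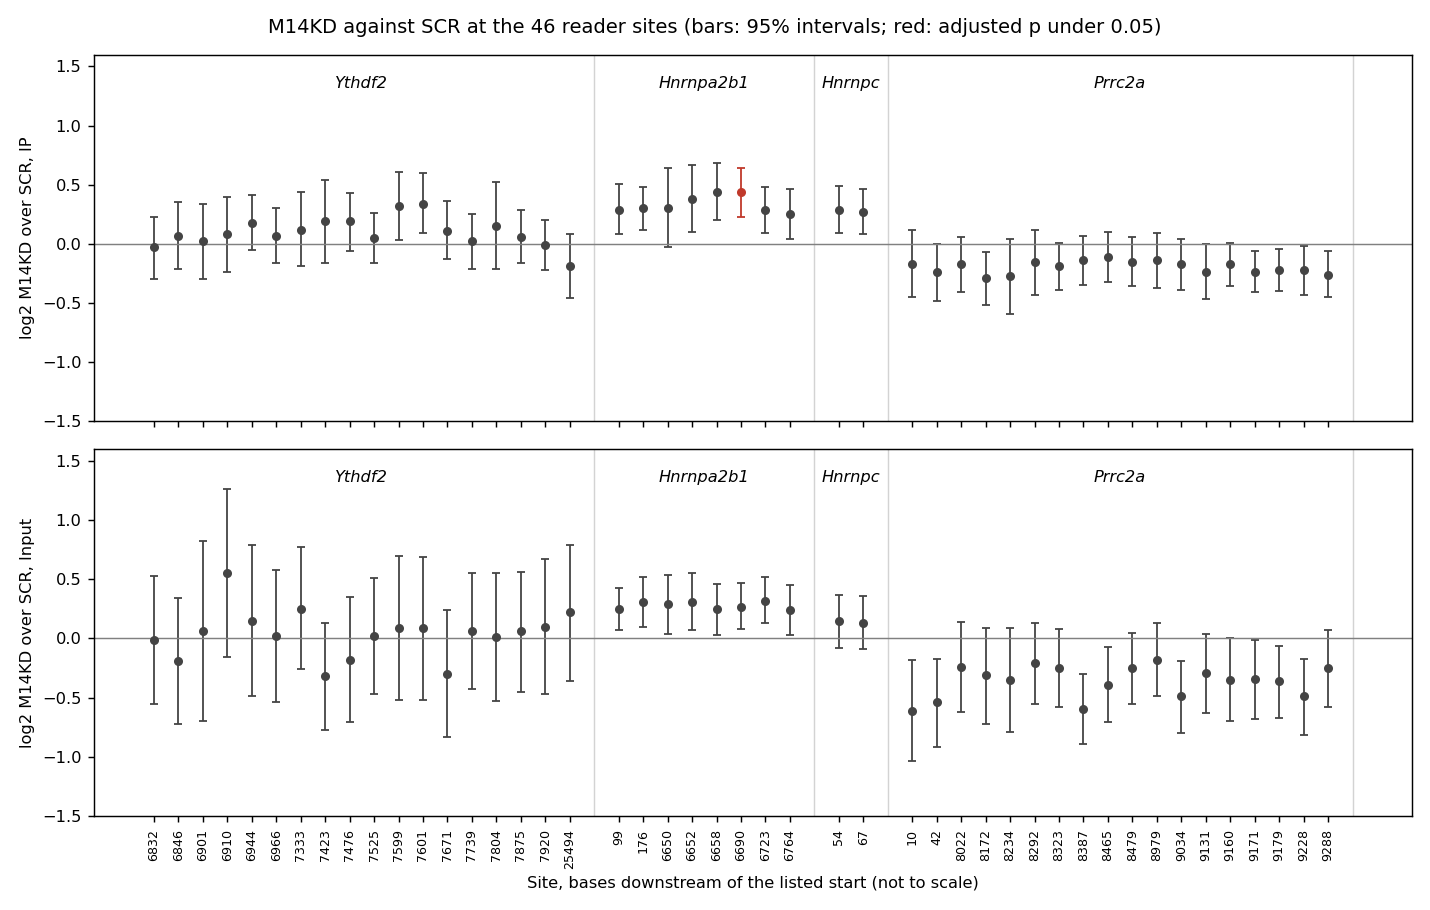
Log2 M14KD over SCR at the 46 reader sites in IP (top) and Input (bottom), ordered within each gene by bases from the listed start, with 95% intervals. In both panels all Hnrnpa2b1 sites lie above 0 and all Prrc2a sites below 0, and 1 IP site, in Hnrnpa2b1 at 6690 bases, passed the test.

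The last comparison asked whether IP relative to Input differed between genotypes. It passed at 0 of 46 sites and 0 of 4 gene sums with edgeR (background 0% of sites and 0% of gene sums), and DESeq2 called 0 of either. At an unadjusted p under 0.05 there was 1 of 46 sites, against 3.72% of all sites, and 0 of 4 sums, against 2.63%. That site was Prrc2a chr17:35156491, with a change of 0.45 (SE 0.18, 95% interval 0.08 to 0.82). Of the 46 sites 34 were above 0 and 12 below, against 16573 above 0 and 16783 below over all sites. Above 0 were 17 of 18 sites in Prrc2a, 10 of 18 in Ythdf2, 5 of 8 in Hnrnpa2b1 and 2 of 2 in Hnrnpc. As before, sites of a gene are not separate evidence. The gene-sum changes were 0.08 (-0.17 to 0.32) for Ythdf2, 0.03 (-0.27 to 0.34) for Hnrnpa2b1, 0.14 (-0.16 to 0.44) for Hnrnpc and 0.16 (-0.16 to 0.49) for Prrc2a, each with an adjusted p of 0.999. The lowest bound of the 4 intervals was -0.27 and the highest 0.49. These fits did not pair same-numbered IP and Input libraries. With them as a replicate block, 1997 of all 33356 sites and 421 of all 6379 gene sums had an unadjusted p under 0.05. In that fit 1 site and 0 gene sums of the whole table passed. For Hnrnpa2b1, Hnrnpc and Prrc2a the IP and Input differences between genotypes lay on the same side of 0, and for Ythdf2 they were 0.08 in IP and -0.01 in Input.

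The other genes of the m6A pathway were taken from fixed lists, at the level of gene sums. Their IP over Input is again on the TMM scale, so higher and lower are relative to most genes. Of 16 other readers 8 had sites and were tested: relative to Input 2 were higher and 3 lower in SCR, with a median of -0.05 against 0.04 for all genes, of which 35.2% were higher and 34.7% lower. Ythdf3, a YTH paralog of Ythdf2, was higher in IP, with 360 and 317 CPM in IP M14KD, 358 and 258 in IP SCR, 113 and 89 in Input M14KD, and 115 and 77 in Input SCR. Its log2 IP over Input in SCR was 0.99 (SE 0.17, adjusted p = 7.97e-05), and Ythdf1 at -0.11 (SE 0.08, adjusted p = 0.239) did not pass. The eIF3 subunits of the translation initiation machinery were lower: Eif3h at -0.97 (SE 0.07, adjusted p = 8.3e-09), Eif3b at -0.82 (SE 0.11, adjusted p = 6.67e-06) and Eif3a at -0.44 (SE 0.13, adjusted p = 0.00615). In CPM, Eif3a averaged 288 in IP SCR and 241 in Input SCR, while Eif3b and Eif3h averaged less in IP SCR than in Input SCR. Of the 12 writer genes 7 were tested, 5 higher and 1 lower, with a median of 0.54. Rbm15 at 1.98 (SE 0.38, on 1 site with 3 and 5 Input counts in SCR, and 1.11 with SE 0.34 in M14KD), Rbm15b at 1.44 (SE 0.12), Cbll1 at 0.67 (SE 0.19), Wtap at 0.54 (SE 0.11) and Virma at 0.38 (SE 0.10), which encode accessory subunits of the writer complex, were higher, and Mettl14 at -1.70 (SE 0.24) was lower. Of 2 erasers Alkbh5, an m6A demethylase, was lower at -0.86 (SE 0.15, adjusted p = 0.000105).

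Of 10 paralogs of the 4 readers, 6 were tested, 1 higher and 4 lower in SCR, with a median of -0.89. Over all genes the median was 0.04, with 35.2% higher and 34.7% lower. Prrc2b was higher at 0.38 (SE 0.08, adjusted p = 0.000539) and Prrc2c lower at -0.56 (SE 0.10, adjusted p = 0.000103). In CPM, Prrc2c averaged 197 in IP SCR and 179 in Input SCR. The hnRNP paralogs Hnrnpd at -1.83 (SE 0.12, adjusted p = 1.82e-09) and Hnrnpab at -1.58 (SE 0.09, adjusted p = 2.58e-10) were lower like Hnrnpa2b1, and Hnrnpa0 at -0.06 (SE 0.07, adjusted p = 0.463) did not pass. Of 12 other hnRNP genes tested 2 were higher and 9 lower, with a median of -1.03. Of 10 tested genes for partners of YTHDF2 in RNA decay 2 were higher and 4 lower, with a median of -0.27. In M14KD against SCR, edgeR called 0 genes of these 6 lists in IP, in Input or in the change of IP over Input. DESeq2 called 1, Hnrnpdl in Input, where edgeR gave 0.45 (SE 0.10, adjusted p = 0.188), but it left the adjusted p undefined for 16 of 45 genes in IP and 25 of 43 in Input. At an unadjusted p under 0.05 by edgeR there were 8 of 45 genes in IP, against 14.1% of all genes, 9 of 43 in Input, against 10.2%, and 1 of 45 in the change of IP over Input, against 2.63%. Among these were 2 of 8 other readers, 2 of 7 writers, 2 of 10 decay partners, 2 of 12 other hnRNP genes, 0 of 6 paralogs and 0 of 2 erasers in IP. In Input they were 1 of 8 other readers, 1 of 6 writers, 2 of 10 decay partners, 3 of 11 other hnRNP genes, 2 of 6 paralogs and 0 of 2 erasers. Mettl14, the target of the siRNA, is among the writers counted in IP and is the writer counted in Input. How reads matching several members of a gene family were assigned is not given in the sources used here, so values of Hnrnpa2b1, Hnrnpc and these families are uncertain in that respect.

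The genes most like each reader were taken by the smallest Euclidean distance between log2 CPM profiles over the 8 libraries, each centred on the gene's own mean, among 6038 genes, as a description. They were Pgrmc2, Dhx32 and Rab28 for Ythdf2 (0.11 each, against a median distance of 1.13 over all genes). For Hnrnpa2b1 they were Snrpd1 (0.18), Sf3b6 (0.19) and Cacybp (0.19, median 2.49). For Hnrnpc they were Rere (0.18), Pole3 (0.18) and Dgkb (0.19, median 1.34), and for Prrc2a Atcay (0.19), Ppp1r9b (0.20) and 2610507B11Rik (0.21, median 1.25).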

How the data were processed

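Per the file headers, the deposited table gives each of 8 libraries a column of counts at shared sites; the values are whole numbers with unequal column totals, so they are raw, and 0 columns were unused. UMI-tools, cutadapt and STAR, and the build mm10, are named in the submitters' processing notes. How sites were called, the counting window and whether counts are of unique molecules are not given in the sources used. Sites were placed in genes by RefSeq spans (GRCm38.p6), and 6531 genes had sites. The 4 genes, the lists and the naming rule were chosen with earlier results of these data known.

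Counts, at sites and summed per gene, were tested with edgeR 4.0.16 (R 4.3.3) by its quasi-likelihood F-test after filterByExpr and TMM. P-values were adjusted over the whole table by Benjamini-Hochberg, with a threshold of 0.05. All 46 sites passed the filter on low counts in every fit. M14KD against SCR used the 4 IP or the 4 Input libraries, and the other contrasts used all 8. Standard errors are the absolute log2 change over the square root of F, and intervals are 95%. CPM is per 1000000 of a library's table total, with a prior count of 2 on the log2 scale for likeness between genes. The pipeline was tested on simulated data.

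Sites named were those with the most IP counts, the highest and lowest IP over Input in SCR, the lowest p in each genotype contrast, and any that passed there. Replicates of a group differed by more than sampling noise (chi-square over degrees of freedom 1.38 to 2.56). Deviations of same-numbered IP and Input libraries correlated weakly, at 0.12 in M14KD and 0.21 in SCR over sites, and at 0.19 in M14KD and 0.28 in SCR over gene sums. The main fits did not pair IP with Input. Same-numbered libraries were paired only in the replicate block, as an alternative. Alternatives were DESeq2 1.42.0 (an undefined adjusted p was left undefined), DESeq2 size factors, table totals, no filter, a mean count of at least 20, each replicate left out, the replicate block, all 8 libraries in 1 model, 1 site per 100 bases, and no sites in another gene's span.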

Additional observations from a re-analysis of the deposited data

How the results depend on the processing

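Of 459 alternative fold changes of reader sites and sums, 434 kept their direction and their side of the threshold, and of 110 alternative counts passing, 100 were within 1.5 times the reported one in total, whatever their split by direction. These 100 include counts of 0 that stayed 0. For the change of IP over Input, at most 1 site and 0 gene sums of the whole table passed in any setting, so those counts could barely move. The fold changes of that comparison, which are among the 459, could likewise hardly cross the threshold, although they could change direction. The count of 1 reader site passing in IP became 0 with DESeq2 and 0 with no filter, and 0 to 7 with a replicate left out. Leaving out a replicate gave 0 to 2 reader sites passing in Input, 0 to 2 gene sums in IP and 0 to 2 gene sums in Input, with replicate 1 as the one whose omission gave 7 IP sites, 2 Input sites and 2 Input sums, and replicate 4 as the one that gave 2 IP sums. With table totals the log2 IP over Input changed sign for the Hnrnpa2b1 site 51469796 (0.11), the Hnrnpc sites 52103968 (0.13) and 52103955 (0.01), the Hnrnpc sum (0.23 in M14KD, 0.09 in SCR) and the Prrc2a sum in SCR (0.56), since this scale moves the median of all sites to 0.76 in M14KD and 0.77 in SCR. The Prrc2a sum in M14KD ranged from -0.06 to 0.08 with a replicate left out. The Ythdf2 Input change of -0.01 ranged from -0.06 to 0.06 with a replicate left out, and was 0.00 with all 8 libraries in 1 model and 0.07 with 1 site per 100 bases; its change of IP over Input was -0.07 with 1 site per 100 bases. The causes of these last shifts were not tested. The replicate block brought the Prrc2a sum in SCR past the threshold (-0.15, adjusted p = 0.00903), and left 39 sites passing in SCR and 40 in M14KD. Over the whole table, 210 IP sites passed with edgeR and 118 with DESeq2, and 0 to 1422 with a replicate left out. With 2 libraries a group, the width of the intervals limits what can be said of changes between genotypes.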
